A study of Rattus norvegicus with 47 samples.

Results

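The comparison of methoxyacetic acid (MAA) with saline at 8 h took in 12 of the 47 arrays of the series, 6 of treated and 6 of saline rats, chosen by the group and the time in the sample labels. The treated group had received 650 mg/kg of MAA into the peritoneum and the saline group saline alone, and both were killed 8 h later. All animals were male Sprague-Dawley rats, 90 days old per the labels, and each gave RNA from a piece of testis parenchyma to 1 array. On every array a pooled rat RNA sold as a universal reference was hybridised in the second dye. The remaining 35 arrays hold the same comparison at 4, 12 and 24 h, each time with a saline group of its own.

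MAA is formed in the body from the solvent ethylene glycol monomethyl ether. In the rat testis it is known for killing spermatocytes, the germ cells that pass through meiosis, while Sertoli cells, Leydig cells and most other germ cells survive. It also inhibits histone deacetylases in cultured cells, and is known to alter the response of nuclear receptors there. Whole testis was measured here, so fewer cells of a type and less RNA per cell cannot be told apart.

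All levels below are log2(testis/reference) after normalization within the array, and a change is the fitted difference, MAA minus saline, with the hybridisation date as a block. The channel headed Cy3 was taken as testis, which opposes the labels, and if the dyes are as the labels have them all signs are to be turned. The arrays bear on this choice directly. For this check the raw log ratio was used, centred on the median of each array. Of 38 germ cell markers 35 had a median over the arrays above 0, and their median level was above 0 on 47 of 47 arrays. In contrast, 1 of 13 genes typical of other organs was above 0, and their median level was above 0 on 0 of 47 arrays. The median brightness of the testis channel was 579 to 920 units on the treated arrays and 431 to 1051 units on the saline ones, and 55.3% to 68.6% and 45.2% to 63.2% of probes stood above background. The dimmest array was that of saline animal 18. On 2 hybridisation dates both groups of 8 h were present, with 2 treated and 2 saline animals each. Treated animals 15 and 20 and saline animals 13 and 18 were hybridised on dates without the other 8 h group. Those dates held only MAA or only saline arrays, whatever the time. Treatment and date cannot be told apart within them, and these 4 arrays enter the fitted change through the groups of other times. The reference channel of treated animal 15 equals that of MAA_12h animal 27 at 100% of probes, and which array it belongs to is not known. With 6 arrays a group, a log2 change at 8 h had a standard error of 0.176 for the median probe.

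Of 20500 probes, 2 passed limma's test at an adjusted p under 0.05, which is 0.00976% of those tested. Both were higher after MAA, and 0 were lower. Dpf1 (Gene ID 50545), a subunit of the BAF chromatin-remodelling complex of neurons that reads modified histone tails, ran from 0.04 over a median of 0.26 to 0.58 in treated testes, against -0.73, -0.50 and -0.26 in saline testes. No treated animal reached down to a saline one. The fitted rise was 1.72-fold, with a log2 change of 0.78 ± 0.13 (SE, n = 6 and 6, limma's adjusted p 0.00526), with 0.92 and 0.69 on the 2 shared dates. Dpf1 was above background on 6 of 6 treated and 2 of 6 saline arrays, so its level in saline testes is mostly not well above background and the fold rests on those dim values. Probe 5512, above background on all 12 arrays, carries no gene symbol here and is named because it is 1 of only 2 calls. It ran from -1.18 over -0.95 to -0.52 after MAA, against -2.39, -1.85 and -1.48 after saline, and rose 1.96-fold (0.97 ± 0.13 SE, adjusted p 0.000195).

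Both calls held in 47 of 47 fits that left out 1 array, where between 2 and 9 probes passed. The count was 4 to 9 without MAA_8h animal 15 or 23, saline_8h animal 18, MAA_4h animal 3, saline_4h animal 6, MAA_12h animal 35, MAA_24h animal 39 or 43, or saline_24h animal 42. With the 12 arrays of 8 h alone 0 probes passed by limma, while 1437 had an unadjusted p under 0.05, and Dpf1 was at 0.80 (adjusted p 0.524). In that fit the 4 arrays on dates of 1 group drop out. It therefore rests on the 2 shared dates, with 2 treated and 2 saline animals each. With median centring in place of loess Dpf1 was at 0.69 (adjusted p 0.0637). With the testis channel alone, undivided by the reference, 32 probes passed, 25 higher and 7 lower. In that fit Dpf1 and probe 5512 passed too, and so did Plekhf1, Ptma, C2cd2l, Limk1, Cotl1, Egr1, Cklf, Setd2 and Rbm5, which are described below.

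**Figure D1:**
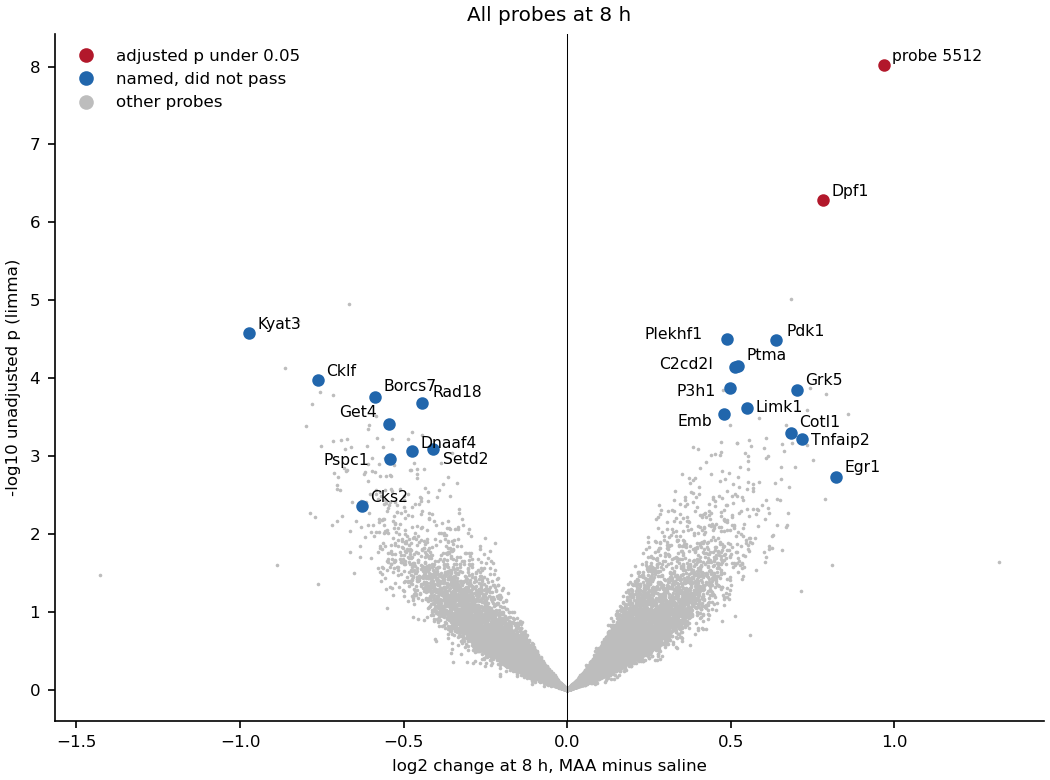
Each point is 1 of 20500 probes, with the log2 change at 8 h (MAA minus saline) on the horizontal axis and -log10 of limma's unadjusted p on the vertical axis. Dpf1 and probe 5512, in red, passed at an adjusted p under 0.05, and the genes in blue are named in the text and did not pass.

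At an unadjusted p under 0.05 there were 1458 probes, 7.11% of those tested, of which 757 were higher (3.69%) and 701 lower (3.42%). The genes described next are those with the smallest p in each direction among probes above background on at least 3 of the 6 arrays of a group, and other than Dpf1 none of them passed. Plekhf1, an endosomal protein that binds phosphoinositides, ran from 0.35 over 0.60 to 0.81 in treated testes, against 0.02, 0.11 and 0.54 in saline testes (log2 change 0.49 ± 0.10 SE, adjusted p 0.0842). Of its 6 treated animals 5 stood above every saline animal. Pdk1, the kinase that switches off pyruvate dehydrogenase, ran from 0.47 over 0.76 to 1.23 after MAA, against -0.01, 0.12 and 0.60 after saline. Its change was 0.64 ± 0.13 SE (adjusted p 0.0842), and 4 treated animals stood above every saline one. Both genes were above background on all 12 arrays. Both passed, as did Kyat3 below, when the test was limited to the 13434 probes above background on at least 3 arrays of a group. Kyat3 met that limit only through the saline arrays, the group where it was higher, so its pass there is no added support. The same holds for Dpf1, which met the limit only through the treated arrays.

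Ptma encodes prothymosin alpha, a small acidic nuclear protein that binds histones. It stood between -2.68 and -2.10 in treated animals (median -2.41), against -3.20 to -2.80 (median -2.98) in saline animals, and the groups did not overlap (log2 change 0.52, adjusted p 0.138). C2cd2l, a lipid transfer protein at contacts of the endoplasmic reticulum with the plasma membrane, stood between -1.35 and -1.02 after MAA, against -1.99 to -1.56 after saline (0.51, adjusted p 0.138), but a second C2cd2l probe, above background on 3 treated and 5 saline arrays, was at -0.23. P3h1, a collagen prolyl hydroxylase, lay in a narrow band of 0.16 to 0.26 in treated testes, against -0.51 to -0.15 in saline testes. The first-named probes of these 3 genes separated all 6 treated from all 6 saline animals.

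Emb, which encodes embigin, a chaperone of lactate transporters, was another such gene, at 0.37 to 0.68 after MAA and -0.07 to 0.23 after saline (log2 change 0.48 ± 0.12 SE, adjusted p 0.219). Limk1, a kinase that inactivates cofilin, and Cotl1, which binds actin filaments, both belong to actin turnover. Limk1 was at 0.55 (adjusted p 0.208), and Cotl1 at 0.68 (adjusted p 0.265) with a second probe at 0.47. Grk5, a kinase of G protein-coupled receptors, was at 0.70 (adjusted p 0.177) and above background on 6 treated arrays and 1 saline array. Tnfaip2 was at 0.72 (adjusted p 0.265) and also above background on 6 treated arrays and 1 saline array, yet a saline animal held its highest value, 1.17, and its other bright probe was at 0.00. Cd99l2, a surface glycoprotein, was at 0.50 (adjusted p 0.251), with 3 treated animals above every saline one.

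**Figure D2:**
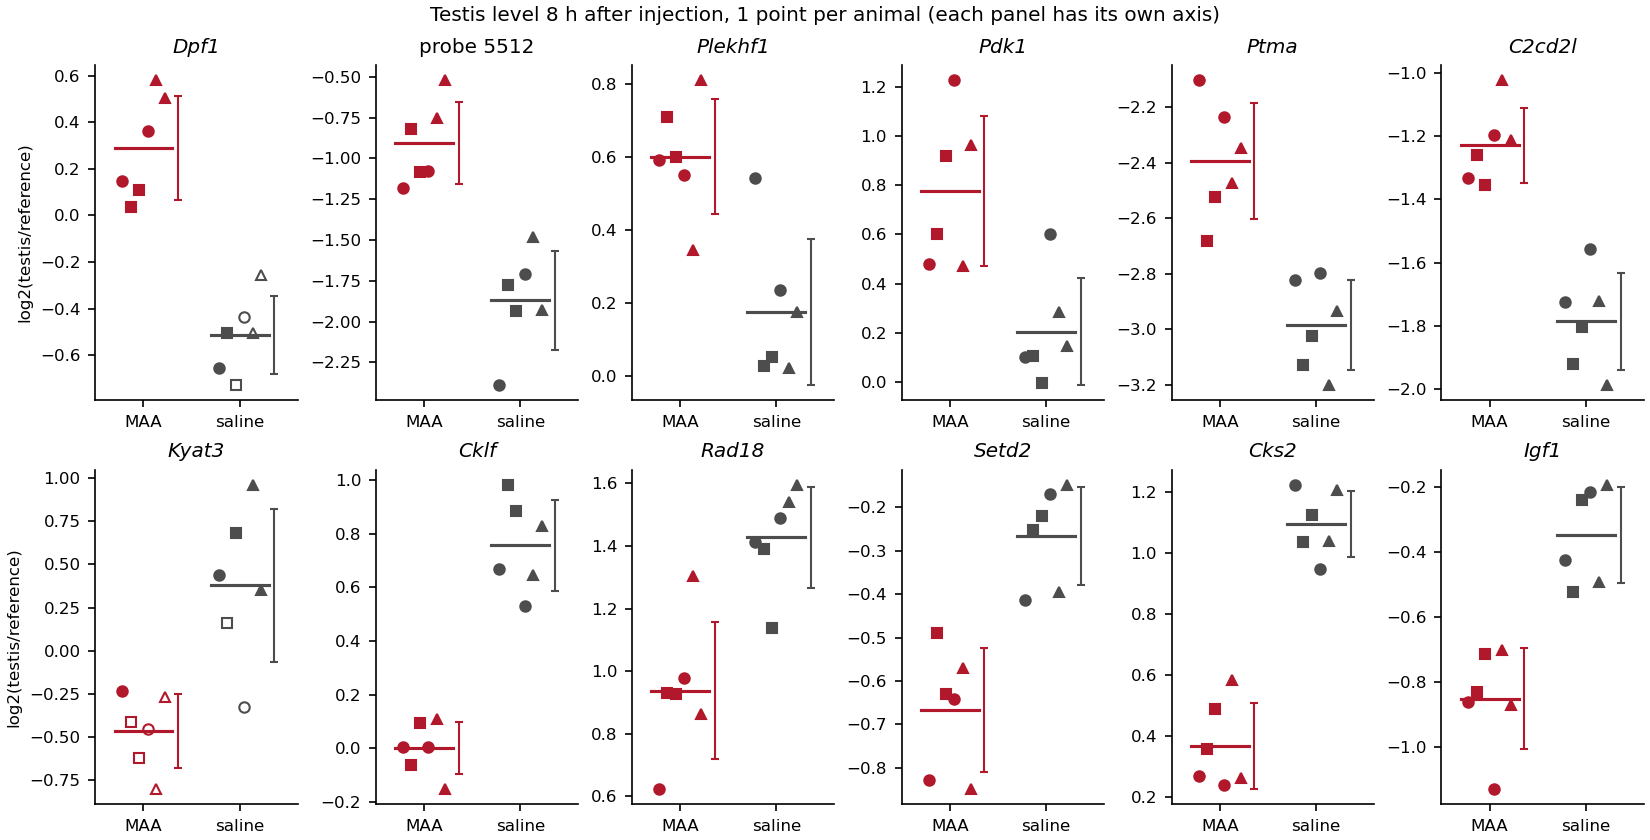
Level of 12 probes as log2(testis/reference) in each animal at 8 h, with MAA left of saline, the group mean as a line and ± SD as a bar (n = 6 each). Triangles and squares are the 2 hybridisation dates that hold both groups, circles other dates, and open symbols are arrays on which the probe was not above background. In the panels of Dpf1, probe 5512, Ptma, C2cd2l, Cklf, Setd2, Cks2 and Igf1 the groups do not overlap.

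Among the lower genes, Kyat3, an aminotransferase that makes kynurenic acid from kynurenine, had the smallest p. It ran from -0.80 over -0.44 to -0.24 in treated testes, against -0.33, 0.40 and 0.96 in saline testes (log2 change -0.97 ± 0.20 SE, adjusted p 0.0842), and was above background on 1 treated and 4 saline arrays. Cklf, a chemokine-like factor of the MARVEL family, ran from -0.15 over 0.01 to 0.11 after MAA, against 0.53, 0.75 and 0.98 after saline (-0.76 ± 0.17 SE, adjusted p 0.177). The gap between its groups, 0.42, was the widest of the lower probes above background on all 12 arrays. Borcs7, a subunit of the complex that positions lysosomes, was at -0.59 (adjusted p 0.182), but its other 2 probes were at 0.14 and 0.27.

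Rad18, the ubiquitin ligase that marks PCNA at damaged DNA, stood between 0.62 and 1.30 in treated testes, against 1.14 to 1.60 in saline testes. Of its treated animals 5 stood below every saline one (log2 change -0.44 ± 0.11 SE, adjusted p 0.199), its second bright probe was at -0.36, and another one, above background on 4 treated and 3 saline arrays, at 0.03. Setd2, which trimethylates lysine 36 of histone H3, was at -0.41 (adjusted p 0.265), and Zmynd11, a reader of that mark on histone variant H3.3, was at -0.46 (adjusted p 0.265). These probes separated the groups: Setd2 reached at most -0.49 after MAA and was at least -0.41 after saline, and Zmynd11 at most -1.27 and at least -1.14. Another Setd2 probe, above background on 4 treated and 4 saline arrays, was at -0.18, and its dimmer probes ran from -0.56 to 0.02. A second Zmynd11 probe, above background on 6 treated and 6 saline arrays, was at -0.28.

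Tra2b, a splicing factor, was at -0.35 (adjusted p 0.275), and Pspc1, a paraspeckle protein, at -0.54 (adjusted p 0.285), with no overlap for either. Paip1, which binds the poly(A)-binding protein, was at -0.55 (adjusted p 0.286), and 4 treated animals stood below every saline one. Other probes of the last 2 genes were at 0.01 for Pspc1 and at 0.02 for Paip1. Get4, which helps insert tail-anchored proteins into membranes, was at -0.54 (adjusted p 0.251), and Dnaaf4, an assembly factor of axonemal dynein, at -0.47 (adjusted p 0.265), both without overlap, but the other Dnaaf4 probe, above background on 3 treated and 4 saline arrays, was at 0.27. Col5a2, a fibrillar collagen chain, was at -0.56 (adjusted p 0.265) and above background on 2 treated and 3 saline arrays, with its other probe at -0.16.

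The 2 groups did not overlap for 135 probes, 0.659% of those tested, 68 higher (0.332%) and 67 lower (0.327%). These levels still hold the date effects, and for 4 of the 12 arrays date and treatment cannot be told apart. After the fitted date effects were removed it was 385 probes (1.88%), 206 higher (1%) and 179 lower (0.873%). Of those above background on all 12 arrays, the widest gaps among higher genes were those of P3h1, Dapp1, C2cd2l, Ifngr2 and Otub2. Ifngr2, a chain of the interferon gamma receptor, lay between -0.04 and 0.04 in treated testes, against -0.81 to -0.22 in saline testes (log2 change 0.49, adjusted p 0.32). Dapp1, a signalling adaptor of lymphocytes, lay between 0.45 and 0.67 after MAA, against 0.12 to 0.24 after saline (0.29, adjusted p 0.76). Otub2, a deubiquitinating enzyme, lay between 1.56 and 1.84, against 1.01 to 1.39 (0.39, adjusted p 0.40). Among lower genes Igf1, the insulin-like growth factor that Leydig and Sertoli cells of the rat make, lay between -1.13 and -0.70 after MAA, against -0.52 to -0.19 after saline (-0.47 ± 0.13 SE, adjusted p 0.297).

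The germ cell lists were read by stage, since spermatocytes are the cells that MAA is known to kill. Over all 9645 genes, with 1 probe each, 7.4% had an unadjusted p under 0.05, 4.02% higher and 3.38% lower, and the median change was 0.01. Small list medians depended on the scaling and on single arrays. With median centring in place of loess 43.1% of all genes were above 0, against 53.5% with loess, and the median turned sign for 15 of the 41 lists. It turned for 21 lists in at least 1 of the 12 fits that left out 1 array of 8 h. Where such fits are meant below, they are called the 12 leave-one-out fits. None of the members of the germ cell lists passed at an adjusted p under 0.05. Of 10 markers of late spermatocytes and the meiotic divisions, 0 were higher and 2 lower at an unadjusted p under 0.05, with a median of -0.13. These were Cks2, a subunit of the cyclin-dependent kinases that drives the meiotic divisions, and Pou5f2, a POU-domain factor of spermatocytes. The median was -0.14 with median centring and -0.16 to -0.08 in the 12 leave-one-out fits, with 1 to 3 lower. The count was 1 without MAA_8h animal 19 or 20 or saline_8h animal 17. Cks2 ran from 0.24 over 0.31 to 0.58 in treated testes, against 0.95, 1.08 and 1.22 in saline testes (log2 change -0.63 ± 0.21 SE, adjusted p 0.429). Pou5f2 ran from 0.29 over 0.60 to 0.79, against 0.93, 1.06 and 1.10 (-0.44 ± 0.19 SE, adjusted p 0.65). Neither gene's groups overlapped. The median level of the late spermatocyte list was 0.43 to 0.78 over the treated animals, against 0.77 to 1.06 over the saline ones, although its median change was -0.22 on the first shared date and -0.0033 on the second.

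Of 8 leptotene to pachytene spermatocyte markers, the genes of chromosome pairing and recombination, 1 was above 0, none had an unadjusted p under 0.05 and the median was -0.09 (-0.19 with median centring, -0.14 to -0.05 in the 12 leave-one-out fits). Sycp2 and Sycp3, parts of the axis of the paired chromosomes, were at -0.18 each (adjusted p 0.84 and 0.86). Of 13 elongating spermatid markers 10 were above 0 (76.9%, against 53.5% of all genes), with a median of 0.14 and none at an unadjusted p under 0.05. With median centring 8 were above 0 and the median was 0.01, and in the 12 leave-one-out fits it was 0.09 to 0.17. Fscn3, the testis form of the actin bundler fascin, had no overlap, at 1.35 to 1.67 after MAA and 1.21 to 1.34 after saline (0.22, adjusted p 0.73). The direction of the round spermatid list was not settled. Of its 7 markers 4 were above 0, with a median of 0.12, but the median was -0.07 with median centring, -0.02 without saline_8h animal 22, -0.00014 without saline_8h animal 18 and -0.05 on the second shared date. Over the animals the middle value of that list was 0.64 in treated testes, against 0.67 in saline testes. Of 9 spermatogonial markers 5 were above 0, and only 3 of the 9 were above background on at least 3 arrays of a group. The median of all 9 was 0.04. It also turned with median centring (-0.0059) and without MAA_8h animal 23 or saline_8h animal 14 or 22 (-0.06 each). Gfra1, the receptor of spermatogonial stem cells, had an unadjusted p under 0.05 but was above background on no array of either group, and no fold is given.

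**Figure D3:**
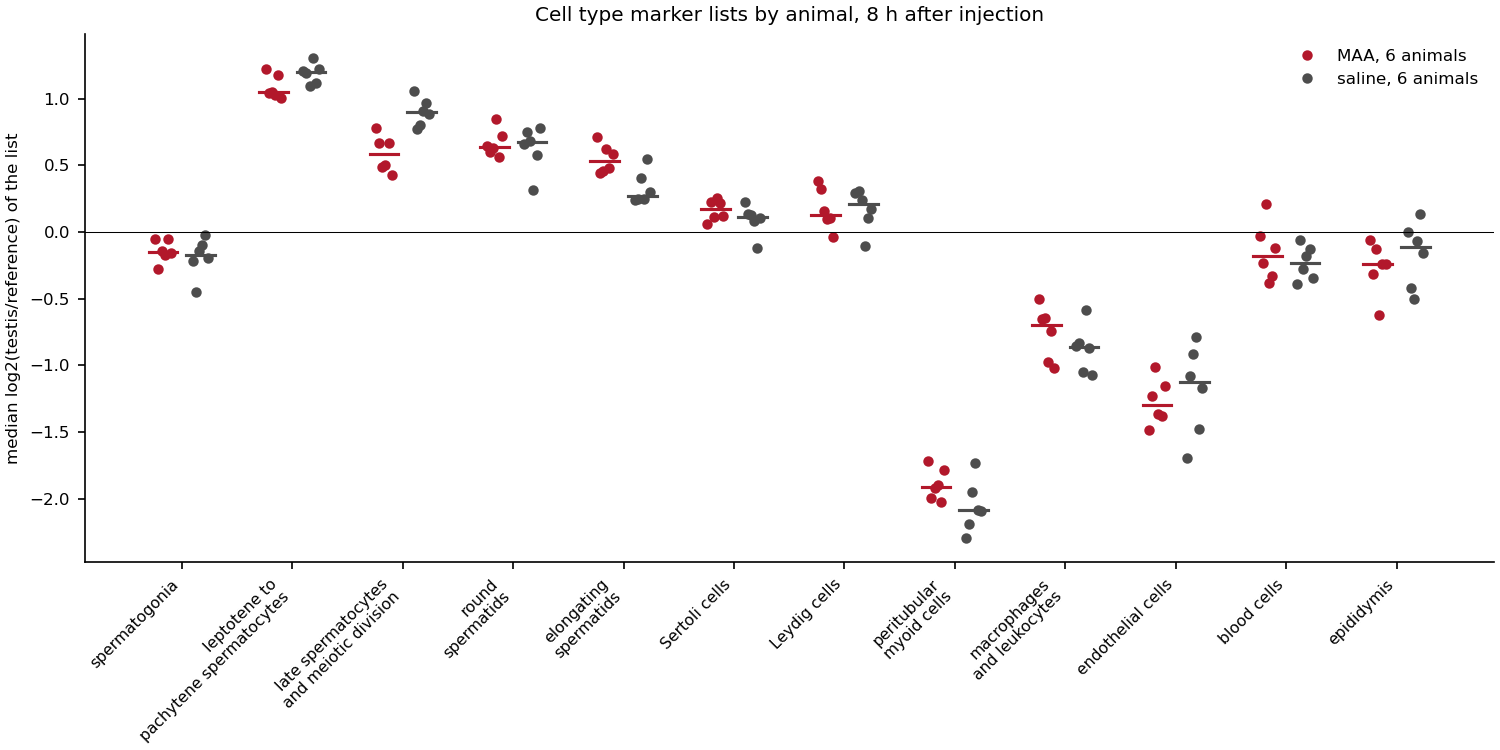
Median log2(testis/reference) of each cell type marker list in each animal at 8 h, MAA in red left of saline in grey, with the median of the 6 animals as a line. The late spermatocyte list lay at 0.43 to 0.78 in treated and 0.77 to 1.06 in saline animals, and the elongating spermatid list at 0.44 to 0.72 and 0.24 to 0.55.

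No marker of Sertoli cells, peritubular myoid cells, macrophages and leukocytes, endothelial cells or the epididymis had an unadjusted p under 0.05. Of the 18 Sertoli cell genes 13 were above 0 (72.2%, against 53.5% of all genes) with a median of 0.07. Clu, a secreted chaperone, was at 0.18 and Inhbb, the inhibin beta B chain, at 0.24. Of 17 macrophage and leukocyte genes 11 were above 0 (64.7%) with a median of 0.07. With median centring both medians were at 0.04. The Leydig cell list of 9 genes had 1 gene in each direction. Hsd11b1, which interconverts active and inactive glucocorticoid, was at 0.29 ± 0.12 SE (adjusted p 0.65), and Cyp17a1, which makes androgen precursors, at -0.43 ± 0.19 SE (adjusted p 0.664), with -0.99 and -0.10 on the 2 shared dates. Among 5 blood cell genes Pf4, a platelet chemokine, was at -0.38 (adjusted p 0.674). The median level of the blood cell list was -0.38 to 0.21 in treated and -0.39 to -0.06 in saline animals, and the epididymal list lay at -0.62 to -0.06 and -0.50 to 0.14.

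Chromatin and genome maintenance genes gave the only call with a symbol. Of 11 BAF subunits Dpf1 rose, 1 other had an unadjusted p under 0.05, and the median was -0.08. That other gene was Dpf2, the ubiquitous paralogue of Dpf1, at 0.38 ± 0.18 SE (adjusted p 0.675), above background on 4 treated and 3 saline arrays. Among 8 histone genes 2 were higher and 2 lower at an unadjusted p under 0.05 (50% in either direction, against 7.4% of all genes). In the 12 leave-one-out fits it was 0 to 2 in either direction. The linker histones H1f4, at 0.62 ± 0.24 SE (adjusted p 0.593), and H1f6, the testis form, at 0.40 ± 0.16 SE (adjusted p 0.617), were the higher ones. The variants H2az1, at -0.29 (adjusted p 0.643), and H2ax, at -0.32 (adjusted p 0.686), were the lower ones. A second H2az1 probe, above background on 6 treated and 6 saline arrays, was at -0.15. H1f4 was at 0.38 and 1.38 on the 2 shared dates. Of 11 deacetylases and sirtuins Hdac6, the cytoplasmic tubulin deacetylase, was at 0.36 (adjusted p 0.591). Of 13 genes known to be raised by deacetylase inhibitors 0 were higher at an unadjusted p under 0.05, with a median of -0.06, and the cell cycle inhibitor Cdkn1a had the highest change among them, 0.24.

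Of 23 DNA damage and repair genes 0 were higher and 6 lower at an unadjusted p under 0.05 (26.1% in either direction, against 7.4% of all genes), and the median of the list was -0.03. The split was less one-sided in other fits, with 1 higher and 5 lower after median centring, where the median was 0.0043, and 0 to 3 higher and 4 to 7 lower in the 12 leave-one-out fits. It was 2 and 4 without MAA_8h animal 24, 1 and 4 without MAA_8h animal 16, 0 and 4 without MAA_8h animal 15, 2 and 5 without MAA_8h animal 19, 3 and 5 without saline_8h animal 17, 2 and 6 without saline_8h animal 22, and 1 and 6 without saline_8h animal 13 or 21. Besides Rad18 these were Parp2, at -0.27 (adjusted p 0.593), Pcna, the sliding clamp of replication, at -0.26 (adjusted p 0.612), Xrcc5, of the Ku end-joining complex, at -0.30 (adjusted p 0.648), Chek2, the checkpoint kinase, at -0.42 (adjusted p 0.665), and Xpc. Xpc was above background on 0 treated arrays and 1 saline array, and no fold is given. Brca1 had the highest change of the list, 0.40. Of 22 cell cycle and replication genes 1 was higher, Ccne1, at 0.37 (adjusted p 0.483), and 3 were lower, Pcna, which both lists hold, Mcm5, at -0.30 (adjusted p 0.694), and Rrm1, of ribonucleotide reductase, at -0.57 (adjusted p 0.389). Rrm1 was at -1.14 and 0.13 on the 2 shared dates, with this probe above background on 2 treated and 4 saline arrays. Its other probe, above background on 4 treated arrays and 1 saline array, was at 0.11.

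Of 18 p53 targets 13 were above 0 (72.2%, against 53.5% of all genes), with a median of 0.15. At an unadjusted p under 0.05, 2 were higher and 0 lower (11.1%, against 7.4% of all genes in either direction). With median centring 12 were above 0 and the median was 0.09, and in the 12 leave-one-out fits it was 0.09 to 0.19, with 1 to 4 higher. The count was 1 without MAA_8h animal 23. Rbm38, an RNA-binding protein that p53 induces, ran from -0.16 over 0.11 to 0.30 in treated testes, against -0.50, -0.24 and -0.18 in saline testes (log2 change 0.39 ± 0.12 SE, adjusted p 0.329), without overlap. Sesn2, a stress-induced inhibitor of growth signalling, was at 0.36 (adjusted p 0.643). Of 31 apoptosis regulators 16 were above 0, with a median of 0.0015 that turned with median centring (-0.0099), and Casp9, the initiator caspase of the mitochondrial route, had an unadjusted p under 0.05 with 0.34 ± 0.15 SE (adjusted p 0.67).

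**Figure D4:**
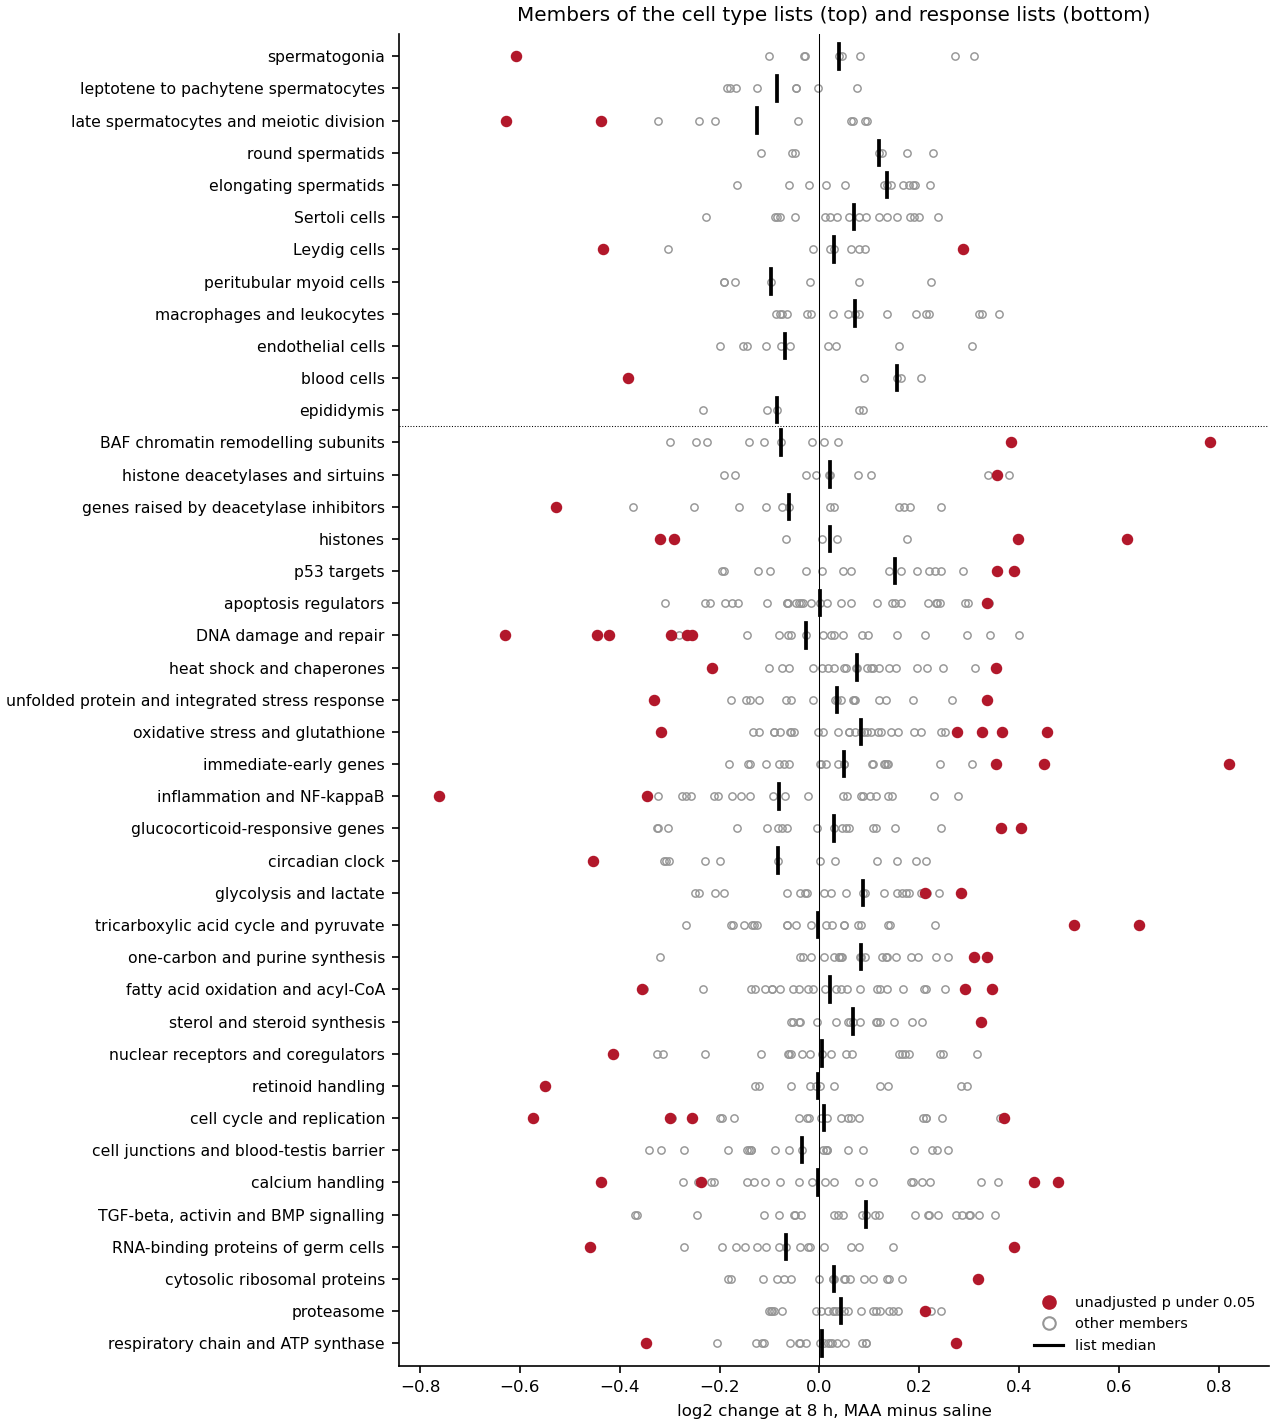
Log2 change at 8 h (MAA minus saline) of each measured member of the 12 cell type lists, above the dotted line, and the 29 response lists below it. Filled red points had an unadjusted p under 0.05, open points did not, and the black bar is the median of the list. The 6 red points of DNA damage and repair all lie below 0, and the 3 of the immediate-early genes above it.

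Immediate-early genes, which respond within minutes to signals at the cell surface, had 3 of 24 members higher and 0 lower at an unadjusted p under 0.05 (12.5% higher, against 4.02% of all genes), and a median of 0.05. With median centring it was again 3 and 0. The count of higher members was 1 without saline_8h animal 21, 2 without MAA_8h animal 16 or 23 or saline_8h animal 13, and 3 or 4 in the rest of the 12 leave-one-out fits. Egr1, a zinc-finger factor of this class, ran from -1.68 over -1.30 to -0.90 in treated testes, against -2.65, -2.23 and -1.83 in saline testes, without overlap (log2 change 0.82 ± 0.24 SE, adjusted p 0.326). It was above background on 6 treated and 3 saline arrays, and passed with the testis channel alone, at 1.19 (adjusted p 0.0147). Dusp6, the phosphatase that ends ERK signals, was at 0.45 (adjusted p 0.597), and the orphan receptor Nr4a1 at 0.35 (adjusted p 0.65). Of 19 glucocorticoid-responsive genes Fkbp5, a co-chaperone of the glucocorticoid receptor, was at 0.40 (adjusted p 0.461) and Errfi1, a feedback inhibitor of EGF receptors, at 0.36 (adjusted p 0.597). Among 13 clock genes Dbp was at -0.45 ± 0.15 SE (adjusted p 0.422).

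Of 31 oxidative stress and glutathione genes 21 were above 0 (67.7%, against 53.5% of all genes), with a median of 0.08. At an unadjusted p under 0.05, 4 were higher and 1 lower (16.1% in either direction, against 7.4% of all genes). With median centring 13 were above 0, the median was -0.04, and 1 was higher and 1 lower. The count of higher members was 1 without saline_8h animal 14, 2 without MAA_8h animal 16 or 20 or saline_8h animal 18, and 3 or 4 in the rest of the 12 leave-one-out fits. Gstp1, a glutathione transferase, ran from -2.17 over -1.96 to -1.75 after MAA, against -2.92, -2.54 and -2.21 after saline, without overlap (log2 change 0.46 ± 0.16 SE, adjusted p 0.501). Sod2, the mitochondrial superoxide dismutase, was at 0.33 (adjusted p 0.664), Hmox1, which degrades haem, at 0.28 (adjusted p 0.691), and Prdx6, a peroxiredoxin, at -0.32 (adjusted p 0.64). The other gene was Keap1, above background on 1 treated array and 0 saline arrays. Of 23 heat shock and chaperone genes 18 were above 0 (78.3%), or 12 with median centring, with a median of 0.08, or 0.01. At an unadjusted p under 0.05 there was 1 in each direction (8.7%), Dnaja4 at 0.35 (adjusted p 0.575) and Hsf2 at -0.22 (adjusted p 0.676). The unfolded protein list of 19 genes also had 1 in each direction, Pdia4 at 0.34 (adjusted p 0.64) and Dnajb9 at -0.33 (adjusted p 0.697). Of 24 inflammation genes 0 were higher and 2 lower at an unadjusted p under 0.05, Cklf and the cytokine Il18, at -0.35 (adjusted p 0.66).

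In metabolism, besides Pdk1, the citric acid cycle enzyme Idh3a was at 0.51 ± 0.18 SE (adjusted p 0.503), and the median of the 22 genes of the cycle and of pyruvate use was -0.0023. Of 23 glycolytic genes 15 were above 0 with a median of 0.09, and Gpi, at 0.28 (adjusted p 0.691), with a second probe at -0.03, and Tpi1, at 0.21 (adjusted p 0.701), had an unadjusted p under 0.05. With median centring 11 were above 0, the median was -0.0019 and 0 had an unadjusted p under 0.05. That count of higher members was also 0 without MAA_8h animal 16 or 20 or saline_8h animal 13 or 22, 1 without MAA_8h animal 23 or 24 or saline_8h animal 14 or 18, and at most 3. Of 23 one-carbon and purine synthesis genes 19 were above 0 (82.6%, against 53.5% of all genes), with a median of 0.08. With median centring 15 were (65.2%, against 43.1% of all genes), with a median of 0.02 and 0 higher at an unadjusted p under 0.05, against 2 with loess. In the 12 leave-one-out fits 16 to 20 were above 0 and 1 to 3 higher. Mthfd2, the mitochondrial folate enzyme, was at 0.31 (adjusted p 0.617) and Mtr, methionine synthase, at 0.34 (adjusted p 0.676). Of 28 fatty acid oxidation genes Acadm and Acads, dehydrogenases of medium and short chains, were at 0.35 and 0.29, and Acsl3, which activates long chains, at -0.35. Of 17 sterol genes Sc5d, a late enzyme of cholesterol synthesis, was at 0.32 (adjusted p 0.687). In the respiratory chain list of 20 genes the ATP synthase subunits Atp5f1c and Atp5f1d were at -0.35 (adjusted p 0.578) and 0.27 (adjusted p 0.643).

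The change at 8 h was set against that at the other times by testing the difference itself. Between 8 h and 4 h 0 probes passed by limma and 1291 had an unadjusted p under 0.05 (6.3%). The smallest p-values for genes with a symbol were those of Slk, a kinase of the cytoskeleton, at 0.65 at 8 h against -0.49 at 4 h, Agtpbp1, which trims glutamate from tubulin, at -0.27 against 0.35 (a second probe, above background on 3 treated arrays and no saline array, was at 0.43 at 8 h), Prl3c1, Rsl24d1 and Slc35a3, each at an adjusted p of 0.61. Pdk1 was at 0.64 at 8 h and 0.03 at 4 h (adjusted p of the difference 0.637), Emb at 0.48 and 0.03, and Grk5 at 0.70 and 0.11. At 12 h Pdk1 was at 0.53 (adjusted p 0.0345) and Grk5 at 0.61 (adjusted p 0.0496), where both passed. Dpf1 was at 0.13 at 24 h and 0.78 at 8 h, and this difference did not pass (-0.65 ± 0.17 SE, adjusted p 0.248).

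Between 12 h and 8 h 1 probe passed (0.00488%) and 1633 had an unadjusted p under 0.05 (7.97%). The 1 probe was that of Maoa, the enzyme that breaks down serotonin and noradrenaline. Its change was 0.95 at 12 h and 0.02 ± 0.12 SE at 8 h, where its level was -0.44 to 0.22 in treated testes, against -0.36 to 0.06 in saline testes. The difference of 0.93 ± 0.16 SE had an adjusted p of 0.0248, and it did not pass without any 1 of MAA_8h animals 16, 20 and 23 or saline_8h animals 13, 14, 17, 18 and 21 (adjusted p at most 0.164). Lsr, a receptor at tricellular junctions, was at 0.79 at 12 h and 0.0030 at 8 h (adjusted p of the difference 0.116), and Ddah1, which degrades methylated arginine, at 0.80 and -0.09 (0.237). Cks2 and Cklf went further at 12 h, to -1.50 and -1.58, where both fell with an adjusted p of 0.000155 and 8.88e-06, but the differences from 8 h did not pass (adjusted p 0.409 and 0.342).

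Between 24 h and 8 h 0 probes passed by limma and 1655 had an unadjusted p under 0.05 (8.07%). Slc7a11, the cystine transporter that feeds glutathione synthesis, came nearest. Its change was 0.63 at 24 h and -0.54 ± 0.17 SE at 8 h, a difference of 1.17 ± 0.22 SE (adjusted p 0.0801). At 8 h it ran from -0.38 over -0.08 to 0.14 in treated testes, against 0.00, 0.40 and 0.89 in saline testes (adjusted p 0.38). With the testis channel alone Slc7a11 was 1 of 2 probes that passed for this difference. Fam209, Etfb, an electron carrier of fatty acid oxidation, and Cycs, cytochrome c, were at 0.56, 0.62 and 0.64 at 24 h and at -0.16, -0.12 and -0.03 at 8 h, and these differences did not pass either. Ercc1, of nucleotide excision repair, was at -0.75 at 24 h and 0.29 at 8 h (adjusted p of the difference 0.223).

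**Figure D5:**
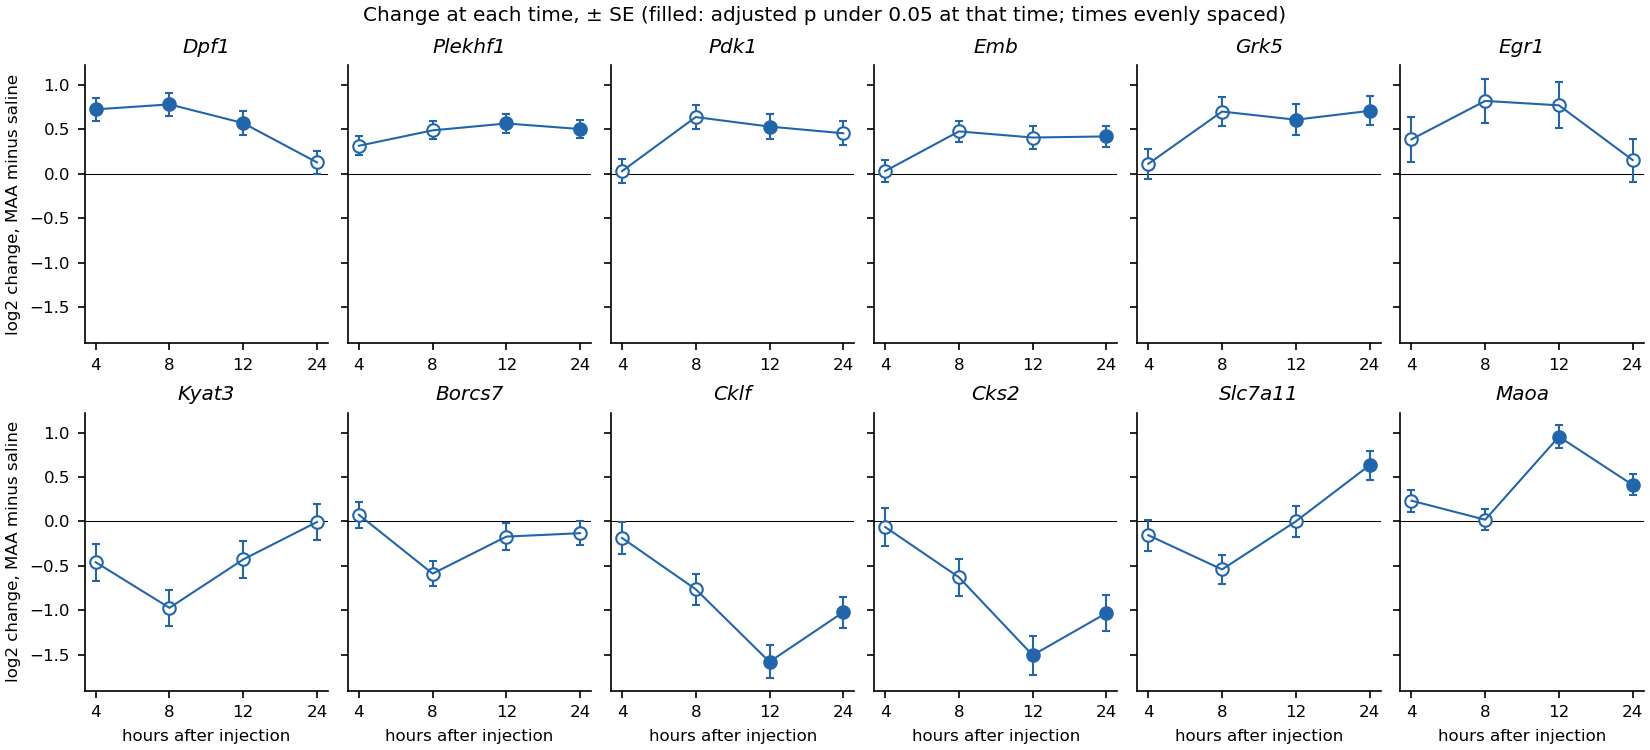
Log2 change (MAA minus saline) ± SE of 12 genes at 4, 8, 12 and 24 h, with filled points where the change passed at an adjusted p under 0.05. Of these genes only Dpf1 is filled at 8 h, while Cklf and Cks2 lie lower at 12 h than at 8 h, Kyat3 and Borcs7 lie lowest at 8 h, and Maoa is at 0.95 at 12 h and near 0 at 8 h.

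The probes that passed at 4, 12 or 24 h were looked up at 8 h. The animals differ, but 4 of the 12 arrays of 8 h share hybridisation dates with those times and all date effects come from 1 fit, so the changes at the different times are not independent. At 12 h 520 probes passed (2.54%) and at 24 h 612 (2.99%), against 4 at 4 h (0.0195%). All 4 probes of 4 h were higher then, and all 4 were higher at 8 h with an unadjusted p under 0.05 (median 0.79 at 4 h and 0.59 at 8 h). For 3 of these 4 the 2 groups of 8 h did not overlap. Probes that passed at 8 h were not left out of this lookup, so it adds no separate support to the calls at 8 h. Of the 347 probes higher at 12 h, 313 had a positive change at 8 h (median 0.56 at 12 h and 0.19 at 8 h), and 113 (32.6%) were higher at 8 h with an unadjusted p under 0.05, against 3.69% of all probes. Of the 173 lower at 12 h, 160 had a negative one at 8 h (median -0.66 at 12 h and -0.22 at 8 h), and 63 (36.4%) were lower with an unadjusted p under 0.05, against 3.42%. For 27 of the higher and 28 of the lower ones the 2 groups of 8 h did not overlap, against 0.332% and 0.327% of all probes. Of the probes that passed at 24 h, 87 of 461 higher (18.9%) and 45 of 151 lower (29.8%) had an unadjusted p under 0.05 in the same direction at 8 h, and 1 in the opposite direction.

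In an alternative chosen after seeing the data, the calls came from the 35 arrays of 4, 12 and 24 h and the changes at 8 h from the 8 arrays on the 2 dates that hold only 8 h animals, so that no array and no date was in common. Fewer probes passed, 228 at 12 h (1.11%) and 328 at 24 h (1.6%). Of the 136 probes higher at 12 h, 127 had a positive change at 8 h (median 0.25), and 38 (27.9%) were higher with an unadjusted p under 0.05, against 3.66% of all probes in these 8 arrays. Of the 92 lower at 12 h, 83 had a negative one (median -0.31), and 38 (41.3%) were lower with an unadjusted p under 0.05, against 3.35%. For the calls at 24 h it was 28 of 239 higher (11.7%) and 30 of 89 lower (33.7%).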

How the data were processed

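The deposited array files hold, per the file headers, raw and processed intensities of 2 channels and a log2 ratio for 22573 spots, of which 2073 have no processed value. The processed intensities and the log2 ratio were normalized by the authors before deposit, by a method not given in the sources used here. No background intensities are in the files, so none were subtracted. Raw intensities were turned into log2(Cy3/Cy5) and normalized by loess within each array (span 0.3, 4 iterations). The deposited series table was used only for an alternative fit, since 39 of its 47 columns equal the ratio of another array within 1e-05.

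A linear model per probe (limma 3.58.1, R 4.3.3) took in 20500 probes and all 47 arrays, with 8 groups and 12 hybridisation dates as fixed terms (28 residual and 6.75 prior degrees of freedom). P-values are two-sided and adjusted by Benjamini-Hochberg over all probes. The animals are separate ones, and the number of arrays limits the precision. The platform's annotation and a RefSeq gene table gave 12736 probes 1 symbol, 5 several and 7759 none, so that 9645 genes were measured, 2262 of them by several probes. For a list each gene was represented by 1 probe, the one brightest in the testis channel.

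The named genes are those that passed, the 12 with the smallest p in each direction, up to 3 per list, the 5 with the smallest p for each difference between times and the 5 with the widest gap in each direction, 160 probes in all. The 41 lists hold 934 entries, of which 704 matched a probe. The members and lists were chosen with earlier results of these data known, and the lists are described by counts without a test of their own. Tests were tried on simulated data.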

Additional observations from a re-analysis of the deposited data

Results flagged for a closer look

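In 18 of 320 groups of 6 arrays of a named probe (5.62%) 1 animal stood far from the other 5 by Dixon's test, where chance flags about 1 in 20 groups. Levels are log2(testis/reference). Among treated animals, Cd99l2 was at 0.164 in animal 23 against -0.457 to -0.244 in the others, and Prl3c1 at 0.953 in animal 24 against 0.48 to 0.629. Sesn2, the stress-induced p53 target, was at -0.00579 in animal 24 against 0.345 to 0.541, and Zmat3, another p53 target, at -0.58 in animal 19 against -0.137 to 0.0582. Slc4a1 and Dnajb9 were low in animal 16, at -0.233 and -0.134, but Slc4a1 was above background on no array of either group. The smooth muscle genes Cnn1 and Smtn stood apart in different animals, with Cnn1 at -1.87 in animal 15 against -2.68 to -2.38 and Smtn at -1.56 in animal 20 against -0.186 to 0.404.

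Among saline animals, Etv5, Lcn5 and Hdac6 stood apart in animal 21, at -1, -1.17 and -0.0937. Casp9 was high in animal 13, at 0.679 against 0.00256 to 0.213, and so was Atp5f1c, at -0.642 against -1.51 to -1.23. Pspc1 was high and Keap1 low in animal 14, at 0.753 and -0.912, and Sdha was at -1.81 in animal 17 against -1.55 to -1.45. Animal 18, whose array was the dimmest, had Adsl at -1.47 against -0.845 to -0.586 and F11r at -1.15 against -1.71 to -1.56.

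The change of Maoa differed between 12 h and 8 h by 0.934 (limma, adjusted p 0.0248), and this was the only difference from 8 h that passed.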

How the results depend on the processing

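No paired analysis was possible because animal numbers do not recur between groups. At 8 h the calls were 2 higher and 0 lower, 2 in all. Their count was 1 with median centring in place of loess, 5 with the deposited ratio (3 higher, 2 lower), 6 with the deposited processed channels (4 and 2), 5 with scale normalization between arrays (3 and 2), 5 with array weights, 8 among probes above background on at least 3 arrays of a group, 13 without the date, 18 with the date as a random block and 32 with the testis channel alone (25 higher, 7 lower). With saturated spots left out or 50 units added to both channels it was 2. It was 0 with the 12 arrays alone, where the 4 arrays on dates of 1 group drop out, 0 on the 2 shared dates and on each of them, and 0 with the series table as labelled, while 1437, 1123, 1180 and 2227 probes had an unadjusted p under 0.05 in these limma fits, the first for the 12 arrays and the 2 dates alike. With the series table Dpf1 was at -0.21 and probe 5512 at -0.28. Leaving out both arrays that share a reference channel, an alternative chosen after seeing the data, gave 11. Leaving out 1 array gave 2 to 9, with the 9 when MAA_4h animal 3 was omitted, 8 for MAA_8h animal 15, 7 for MAA_12h animal 35, 6 for saline_4h animal 6, 5 for saline_8h animal 18, and 4 for MAA_8h animal 23, for saline_24h animal 42 and for MAA_24h animals 39 and 43 in turn.

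For the difference between 12 h and 8 h the count of 1 became 0 with median centring, 0 on the testis channel alone, 3 without the date, and 0 to 1 when 1 array of 8 h was left out. The Maoa difference was 0.87 (adjusted p 0.419) and 0.70 (adjusted p 0.151) in the first 2 of these. Between 24 h and 8 h it was 2 with the testis channel alone and 0 to 2 without 1 array, 2 of them without MAA_8h animal 24, saline_8h animal 13 or saline_8h animal 22. Between 8 h and 4 h it was 0 throughout. The lists held 1 called gene, against 0 after median centring, 4 for the testis channel by itself and 1 to 2 without 1 array, 2 without MAA_8h animal 15 or 23. Groups without overlap numbered 385 after the date effects were removed. The cause of these differences was not tested.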

Other observations

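In the lists not described above none of the members passed at 8 h. Over all 9645 genes 7.4% had an unadjusted p under 0.05, and 53.5% were above 0. Among 24 calcium handling genes 2 were higher and 2 lower at an unadjusted p under 0.05 (16.7% in either direction). S100a10, the light chain of the annexin A2 complex, stood between -2.50 and -2.11 in treated testes, against -3.02 to -2.46 in saline testes (log2 change 0.43 ± 0.18 SE, limma's adjusted p 0.632), and Cacna1h, a T-type calcium channel, was at -0.44 ± 0.17 SE (adjusted p 0.579). Calm2, a calmodulin gene, was at -0.24, and Camk2g was above background on 1 treated array and no saline array. Among 17 RNA-binding proteins of germ cells 5 were above 0 (29.4%), with a median of -0.07. At an unadjusted p under 0.05, 1 was higher and 1 lower (11.8%). Rbm5, a splicing factor that spermatid development needs in mice, stood between -1.28 and -0.80 after MAA, against -0.76 to -0.34 after saline, without overlap (-0.46 ± 0.13 SE, adjusted p 0.311).

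Of 25 genes of TGF-beta, activin and BMP signalling 17 were above 0 and none had an unadjusted p under 0.05. Of 21 junction genes 10 were above 0, again with none at an unadjusted p under 0.05. Pgr and Cyp26a1 were the lower members of the nuclear receptor and retinoid lists, each above background on 1 treated and 1 saline array. Of 24 proteasome genes 18 were above 0, with a median of 0.04 and Psma4 at 0.21 (adjusted p 0.691), but 7 with a median of -0.09 after median centring. Of 19 cytosolic ribosomal protein genes 13 were above 0, with a median of 0.03, and 3 with a median of -0.11 after median centring. Syt1, the only gene of the deacetylase inhibitor list with an unadjusted p under 0.05, was lower and above background on no treated array and 2 saline arrays.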
